A study of Mus musculus with 6 samples.

Results

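Neutrophil granule genes encode the proteins that neutrophils store in their granules or carry in their cytosol, and 10 of them were followed here in bone marrow-derived macrophages (BMDMs) co-cultured with ovarian cancer cells. The members were chosen by name, with earlier results of these data known. They are Mpo, Elane, Prtn3 and Ctsg of the azurophil granules, Ltf, Camp, Ngp and Lcn2 of the specific granules, and S100a8 and S100a9 of the cytosol. All 10 were found among the 54532 genes of the expression table, and all 10 were among the 13441 genes that passed the filter on low values. The question the comparison addresses is how tumour cells exposed to cisplatin, a DNA-crosslinking platinum drug, act on myeloid cells. The tumour cells were ID8, a line derived from mouse ovarian surface epithelium. For 3 libraries they were pretreated with 40 µM cisplatin before the co-culture, and for the other 3 with phosphate-buffered saline (PBS). The marrow cells came from young adult C57BL/6 mice. The labels call them BMDMs and the methods call them monocytes, and neither names a growth factor in their medium or the way in which they were separated from the ID8 cells before RNA was taken. The methods speak of biological replicates without saying whether the 3 libraries of a group came from separate animals or from separate cultures, so the p-values measure the spread between these libraries.

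Granule proteins are made in sequence while a granulocyte matures. Promyelocytes make the azurophil proteins, myelocytes make the specific granule proteins, and S100a8 and S100a9 fill the cytosol of mature neutrophils and monocytes. Transcription factors of the C/EBP, ETS and Myb families are known to act on many of these genes, among them PU.1 and Myb on the early ones and C/EBPε on the specific granule genes. Monocyte progenitors transcribe several azurophil genes as well, and Lcn2 is also made by epithelial cells and by macrophages exposed to inflammatory stimuli, so a level in bulk RNA does not name a cell. In such RNA a change in the number of cells of a type and a change of RNA per cell cannot be told apart.

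The sequence before the gene start was examined because these genes are known as targets of shared factors and because 7 of them were called higher together here. RefSeq sequence of GRCm38.p6 was matched for all 10 members, and the 250 bases before the RefSeq gene start were searched on both strands. The ETS letters GAGGAA, which PU.1 can bind, were found before all 4 azurophil genes and before 7 of the 10 members, against 23.4% of 32544 promoters. These 7 are not the 7 called higher. Lcn2, which fell, and S100a8, which was not called, held the letters, while Camp and Ngp, which rose, did not. The C/EBP letters TTNNGNAAT were found before 3 members, Ltf, Ngp and S100a9, against 10.2% of promoters. In the stretches below, read 5′ to 3′ along the gene and lying outside any exon of GENCODE M21, capitals mark GAGGAA in the azurophil genes and the C/EBP match, on either strand, in the other 3.
Mpo, chr11:87793534-87793580, plus strand: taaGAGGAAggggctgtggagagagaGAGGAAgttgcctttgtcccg
Elane, chr10:79886197-79886246, plus strand: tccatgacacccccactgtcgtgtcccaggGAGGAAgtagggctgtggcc
Prtn3, chr10:79879542-79879607, plus strand: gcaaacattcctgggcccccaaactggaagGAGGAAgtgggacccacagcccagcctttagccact
Ctsg, chr14:56102755-56102820, minus strand: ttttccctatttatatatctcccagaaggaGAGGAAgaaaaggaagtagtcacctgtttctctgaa
Ltf, chr9:111019187-111019255, plus strand: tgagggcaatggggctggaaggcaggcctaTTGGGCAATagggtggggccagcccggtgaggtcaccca
Ngp, chr9:110419639-110419707, plus strand: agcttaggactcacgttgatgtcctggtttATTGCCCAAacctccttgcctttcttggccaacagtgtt
S100a9, chr3:90695814-90695882, minus strand: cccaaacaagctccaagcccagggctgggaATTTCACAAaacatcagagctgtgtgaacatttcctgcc
The neighbouring genes Elane and Prtn3 carry the ETS letters at a similar distance, starting 85 and 95 bases before the start, and Mpo carries them at 2 positions. The Myb letters AACNG were found before all 10 members, but 74.1% of promoters hold them. CCAAT was found before Elane, Ltf and Ngp (33.8% of promoters), in Ltf overlapping the C/EBP match. TATAAA (12.3% of promoters) was found before S100a8 on the gene's strand, at -30 to -25. Before Ctsg it lay on the other strand and further away, at -237 to -232. No member held the NF-κB motif (3.87% of promoters) or the interferon-stimulated response element (2.98%) as searched in this window. Before Ltf, Lcn2 and S100a8 the letters GAGGAA lie on the other strand. The GC content of the 10 windows ran from 47.6% to 60.4%, with a median of 52.4% over all promoters. These matches describe letters and not bound sites.

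**Figure D1:**
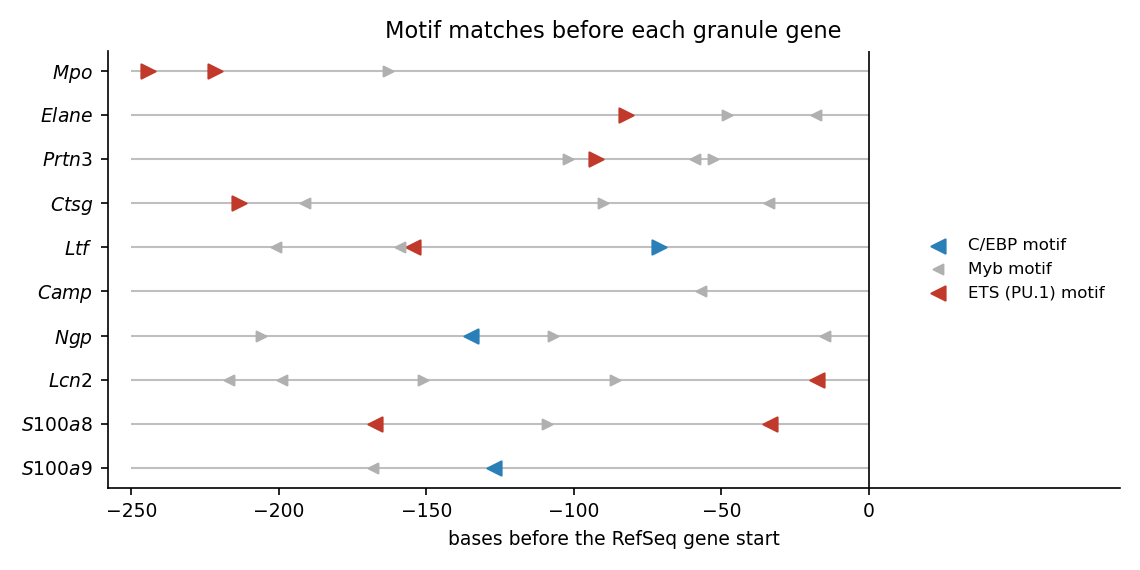
Position of motif matches in the 250 bases before the RefSeq start of each granule gene (horizontal axis, bases before the start). Red marks are ETS (PU.1) letters, blue marks C/EBP letters and grey marks Myb letters, and each triangle points right for a match on the gene's strand and left for the other strand. All 4 azurophil genes have a red mark, and blue marks appear before Ltf, Ngp and S100a9.

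The libraries held 15776238 to 17924686 reads, recovered from the deposited FPKM (fragments counted per unit of gene length and of sequencing depth). Markers of other cells moved with the comparison. Of 13 tested markers of ID8 and mesothelial cells, 9 fell after cisplatin and none rose by the call used below, and the summed level of the list was 256 to 278 FPKM with cisplatin against 1342 to 1451 FPKM with PBS. The most abundant genes of the list, by the mean over all 6 libraries, were Krt19 (51.1 ± 3.8 against 588 ± 28.8 FPKM, SD, n = 3 per group) and Sparc (49.7 ± 2.30 against 231 ± 6.21 FPKM), while with cisplatin Msln was the highest (61.0 against 99.9 FPKM, log2 fold change -0.70, not called). No gene of that list was at 0 in every library. All 18 genes of a pan-leukocyte list were higher with cisplatin at an adjusted p under 0.05, with a median log2 difference of 0.83, and the 4 Y-linked genes had a median of 0.70. The table was therefore also scaled by each of these lists. Their medians are on log2(FPKM + 1), whereas the scaling factors came from geometric means of FPKM itself. With cisplatin against PBS the factors were 1.299 to 1.337 against 0.7385 to 0.7705 for the pan-leukocyte genes. For the Y-linked genes they were 1.389 to 1.452 against 0.6651 to 0.7447. Scaling by the pan-leukocyte genes moved the median log2 fold change of all tested genes from -0.0011 to -0.668, and scaling by the Y-linked genes moved it to -0.832. The part of this shift in each result was not tested. Values under these scalings are given beside those of the table as deposited for the members and, in the order pan-leukocyte and Y-linked, for the other lists and most genes named from them.

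Of the 10 granule genes, 7 rose and 1 fell in BMDMs co-cultured with cisplatin-pretreated ID8 cells. A gene was called when its Benjamini-Hochberg adjusted p (limma, over all tested genes) was under 0.05 and its log2 fold change, on log2(FPKM + 1), was at least 1 in size. By this call 4.67% of all tested genes were higher and 11.3% lower. Since the members were chosen with earlier results known, their counts beside these shares are a description and not a test. The 4 azurophil genes and Ltf, Camp and Ngp rose, Lcn2 fell, and S100a8 and S100a9 were higher by less than the fold threshold. The median log2 fold change of the 10 was 1.79, against -0.0011 over all tested genes. By the adjusted p alone 9 members were higher and 1 lower, where 32.9% of all tested genes were higher and 35.1% lower (68% in all). The ranges of the groups did not overlap in any of the 10, with cisplatin above PBS in 9 and below it in Lcn2, and the same separation was seen in 35.2% (above), 37.2% (below) and 72.4% (either) of all tested genes, so it is common in these libraries. Counts over all genes depended on the processing. As deposited, 628 genes were higher and 1514 lower (29.3% of the calls higher), while a pseudocount of 0.1 gave 973 and 1981 (32.9%), limma voom on the recovered reads, which changes the log offset and the test as well, 1227 and 1862 (39.7%), quantile normalisation 835 and 1290 (39.3%), pan-leukocyte scaling 119 and 3911 (2.95%), and Y-linked scaling 85 and 5181 (1.61%).

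**Figure D2:**
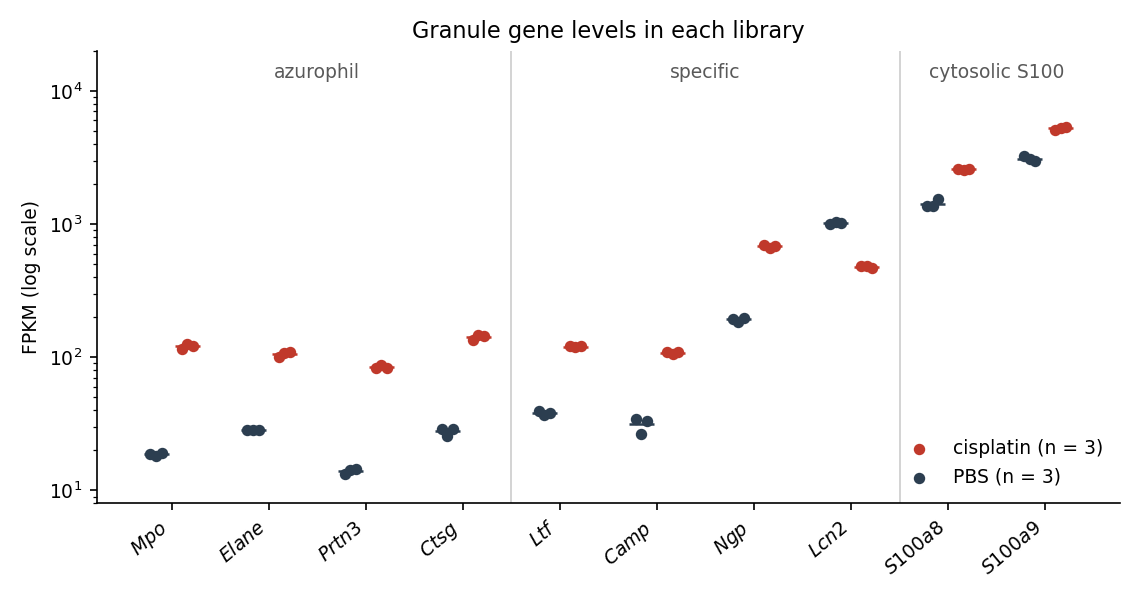
FPKM of the 10 granule genes (log scale) in each of the 6 libraries, grouped by the compartment of their protein. Points are libraries, short lines are the means of 3, red is cisplatin and dark blue is PBS. As deposited, the cisplatin points lie above the PBS points for 9 genes and below them for Lcn2.

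The azurophil genes rose the furthest. Mpo encodes myeloperoxidase, the haem enzyme that makes hypochlorous acid from hydrogen peroxide and chloride (ENSMUSG00000009350, mm10 chromosome 11, 87793581 to 87804413). Its level was 116, 125 and 122 FPKM in cisplatin replicates 1, 2 and 3, and 18.9, 18.0 and 19.1 FPKM in the PBS replicates. The lowest cisplatin library was 6.08 times the highest PBS library. The means were 121 ± 4.51 and 18.7 ± 0.59 FPKM (SD, n = 3 per group), so that the log2 fold change was 2.63 with an SE of 0.042 (adjusted p = 6.00e-08). Mpo ranked 13 of the 13441 tested genes by log2 fold change. An antisense gene, Gm11505, lies within Mpo but had 1 read in all 6 libraries together.

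Prtn3 encodes proteinase 3, a serine protease of the same granules (ENSMUSG00000057729, chromosome 10, 79874476 to 79883174). It was measured at 82.7, 87.0 and 82.8 FPKM with cisplatin and at 13.4, 14.2 and 14.6 FPKM with PBS. All cisplatin libraries were thus at least 5.68 times any PBS library. The group means, 84.2 ± 2.45 and 14.1 ± 0.59 FPKM, differed by 2.499 (log2 fold change) with an SE of 0.043 (adjusted p = 6.68e-08). The start of the Prtn3 gene model in the table overlaps Plppr3 on the other strand, which was at 7.23 FPKM with cisplatin and 2.83 FPKM with PBS, and whether strand was used in the counting is not given in the sources used here.

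Ctsg encodes cathepsin G, a chymotrypsin-like protease (ENSMUSG00000040314, chromosome 14, 56099881 to 56102574). Its values were 134.9, 147 and 144 FPKM with cisplatin and 28.99, 25.5 and 28.97 FPKM with PBS, with no overlap between the groups. The mean rose from 27.8 ± 1.98 to 142 ± 6.39 FPKM (log2 fold change 2.31, SE 0.061, adjusted p = 2.19e-07). Elane encodes neutrophil elastase (ENSMUSG00000020125, chromosome 10, 79886247 to 79888215), which cleaves elastin and other matrix proteins. It had 100.6, 108 and 109 FPKM with cisplatin and 28.6, 28.25 and 28.64 FPKM with PBS. The 3 PBS libraries were closer to each other than counting alone would leave them on average, with a coefficient of variation of 0.745% against a counting error of 4.68%. The log2 fold change of Elane, 1.86 (SE 0.040, adjusted p = 1.08e-07), had the lowest value among the azurophil genes.

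The specific granule genes did not move together. Ngp, which encodes neutrophilic granule protein, a relative of the cathelicidins, was the most abundant of the 8 genes of granules proper in the cisplatin libraries (ENSMUSG00000032484, chromosome 9, 110419747 to 110423012). Its level was 697, 659.5 and 680.3 FPKM with cisplatin against 195, 184 and 197 FPKM with PBS. The means of 679 ± 18.6 and 192 ± 7.15 FPKM gave 1.82 as the log2 fold change (SE 0.040, adjusted p = 1.15e-07). Camp encodes the cathelicidin antimicrobial peptide precursor, known in mice as CRAMP (ENSMUSG00000038357, chromosome 9, 109847379 to 109849617). It was at 109.6, 106 and 109 FPKM with cisplatin and at 34.4, 26.8 and 33.1 FPKM with PBS, where replicate 2 was the lowest. Camp had the widest spread among PBS libraries of all members, with a coefficient of variation of 13% against a counting error of 5.07%, and its log2 fold change was 1.76 (SE 0.090, adjusted p = 4.13e-06). Ltf encodes lactoferrin, which binds iron and so withholds it from bacteria (ENSMUSG00000032496, chromosome 9, 111019271 to 111042767). Its level was 121, 119 and 121 FPKM with cisplatin and 39.6, 36.6 and 38.2 FPKM with PBS. The cisplatin libraries were nearly alike (SD 0.69 FPKM), and the log2 fold change was 1.63 (SE 0.037, adjusted p = 1.28e-07).

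Lcn2 went the other way. It encodes lipocalin 2, which captures the siderophores that bacteria use to take up iron (ENSMUSG00000026822, chromosome 2, 32384633 to 32388252). Its level was 489, 480.2 and 469 FPKM with cisplatin and 1009, 1045 and 1011 FPKM with PBS. Every PBS library had at least 2.07 times the level of any cisplatin library. The mean fell from 1021 ± 20.4 to 479 ± 9.85 FPKM (log2 fold change -1.09, SE 0.033, adjusted p = 4.06e-07). Its distance from the fold threshold was small. The call was lost under quantile normalisation, where the log2 fold change was -0.958, and under limma treat, which tests against a fold of 2 (adjusted p = 0.156). Scaling by the pan-leukocyte genes made the fall larger, at -1.89. With PBS Lcn2 was the most abundant gene of granules proper, and with cisplatin it lay below Ngp.

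S100a8 and S100a9 encode the subunits of calprotectin, a calcium- and zinc-binding heterodimer, and were the most abundant members in both groups. S100a9 (ENSMUSG00000056071, chromosome 3, 90692632 to 90695721) was at 5111, 5224 and 5363 FPKM with cisplatin and at 3241, 3101 and 2973 FPKM with PBS. Its mean ranked 3 of all genes of the table with cisplatin and 4 with PBS. S100a8 (ENSMUSG00000056054, chromosome 3, 90668978 to 90670035) was at 2593, 2556 and 2595 FPKM with cisplatin and at 1370, 1368 and 1532 FPKM with PBS. As deposited, both were higher with cisplatin, by 0.75 (SE 0.046, adjusted p = 9.98e-06) for S100a9 and by 0.86 (SE 0.052, adjusted p = 9.45e-06) for S100a8 on the log2 scale, but neither reached the fold threshold and neither direction held under every scaling. Scaled by the pan-leukocyte genes, the log2 differences were -0.049 for S100a9 (adjusted p = 0.36) and 0.059 for S100a8 (adjusted p = 0.272). Scaled by the Y-linked genes they were -0.245 (adjusted p = 0.0141) and -0.138 (adjusted p = 0.205). Quantile normalisation gave 0.15 for S100a9 (adjusted p = 0.0645) and 0.44 for S100a8 (adjusted p = 0.00213).

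Under the pan-leukocyte scaling, as in the table as deposited, the log2 fold changes of the azurophil genes lay above those of the specific granule genes, with Elane close to Ngp. The azurophil genes kept the call in 4 of 4 cases, with log2 fold changes of 1.85 for Mpo, 1.73 for Prtn3, 1.53 for Ctsg and 1.07 for Elane. Of the specific granule genes, Ngp (1.02) kept it, while Camp (0.97) and Ltf (0.84) passed the adjusted p (1.78e-05 and 6.52e-07) but not the fold threshold. With that scaling 5 of the 10 members were higher and 1 lower by the call, against 0.885% and 29.1% of all tested genes. With the Y-linked scaling 3 members were higher (Mpo 1.66, Prtn3 1.54 and Ctsg 1.33) and 1 lower (Lcn2 -2.09), against 0.632% and 38.5%. Elane (0.88), Ngp (0.82), Camp (0.78) and Ltf (0.65) then passed the adjusted p but not the fold threshold. Relative to the shifted median of all genes, Mpo stood at 2.52 and 2.49, Ngp at 1.68 and 1.65, S100a8 at 0.73 and 0.69, and Lcn2 at -1.22 and -1.255 under the pan-leukocyte and the Y-linked scaling. Both scalings assume that the genes of their list did not change in the leukocytes themselves, which was not tested.

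**Figure D3:**
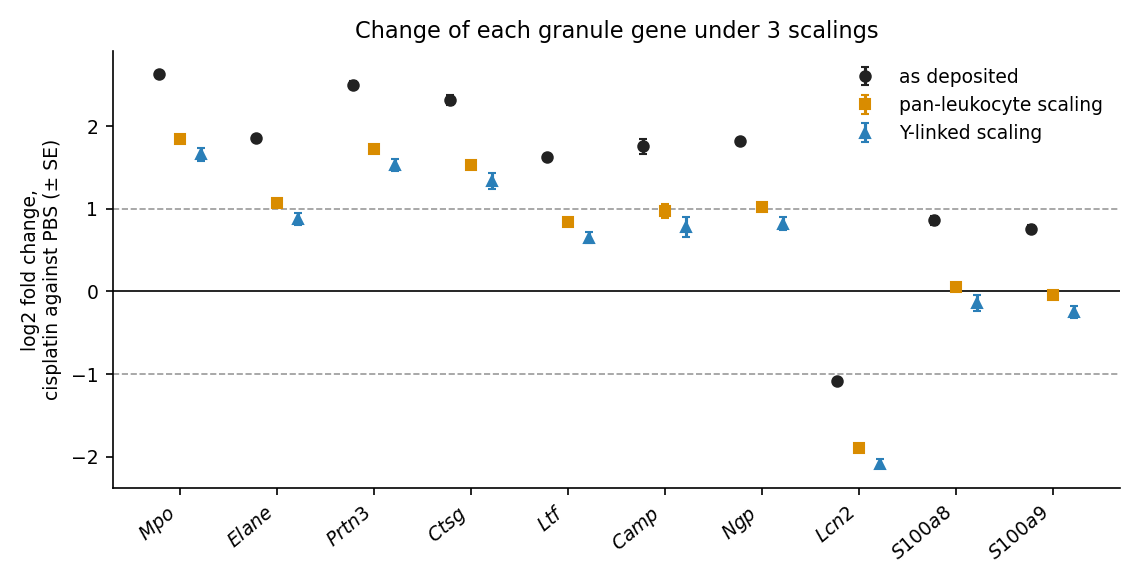
Log2 fold change of each granule gene, cisplatin against PBS, with the table as deposited (black circles), scaled by 18 pan-leukocyte genes (orange squares) and scaled by 4 Y-linked genes (blue triangles). Bars are ± 1 SE from limma and dashed lines mark a fold of 2 in either direction. Mpo, Prtn3 and Ctsg stay above the upper line under all 3 scalings, Lcn2 stays below the lower line, and S100a8 and S100a9 move from 0.86 and 0.75 to values on either side of 0.

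Ratios between genes of the same library do not depend on the scaling of that library, and they differed between compartments. The summed FPKM of the azurophil genes was 434, 467 and 458 with cisplatin and 89.9, 86.1 and 91.3 with PBS. Relative to the specific granule genes, this sum stood at a log2 ratio of -1.61 ± 0.081 with cisplatin and -3.85 ± 0.053 with PBS (SD, n = 3 per group, two-sided exact permutation test, p = 0.1, the smallest that 3 libraries against 3 can give). Lcn2 carried much of this. Without it, the log2 ratios were -1.002 ± 0.087 and -1.55 ± 0.029, a difference of 0.55 that still left no overlap between the groups (exact permutation test, p = 0.1). Relative to S100a8 and S100a9, the azurophil sum differed by 1.56 on the log2 scale, from -4.11 ± 0.047 to -5.67 ± 0.038 (exact permutation test, p = 0.1). All 3 differences were in the direction of more azurophil RNA with cisplatin in 3 of 3 libraries.

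Within the azurophil genes the ratios changed as well. The Mpo to Elane ratio was 1.15, 1.16 and 1.12 with cisplatin and 0.66, 0.64 and 0.67 with PBS. The Prtn3 to Elane ratio, of 2 genes that lie 3072 bases apart, was 0.82, 0.80 and 0.76 against 0.47, 0.50 and 0.51. Elane therefore exceeded Mpo in the PBS libraries and fell below it in the cisplatin libraries. For Ctsg to Elane the ratios were 1.34, 1.36 and 1.33 against 1.01, 0.90 and 1.01. By contrast the Camp to Ngp ratio did not separate the groups. It ran from 0.157 to 0.161 with cisplatin and from 0.146 to 0.177 with PBS, and the difference of the log2 ratios was -0.030 (exact permutation test, p = 0.8). The same held for S100a9 to S100a8, at 1.97 to 2.07 with cisplatin and 1.94 to 2.37 with PBS (log2 difference -0.107, exact permutation test, p = 0.4). Ltf to Ngp was slightly lower with cisplatin in all 3 libraries, at 0.173 to 0.181 against 0.194 to 0.203. The Lcn2 to Ngp ratio differed the most, at 0.701, 0.728 and 0.689 with cisplatin and 5.17, 5.68 and 5.12 with PBS.

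**Figure D4:**
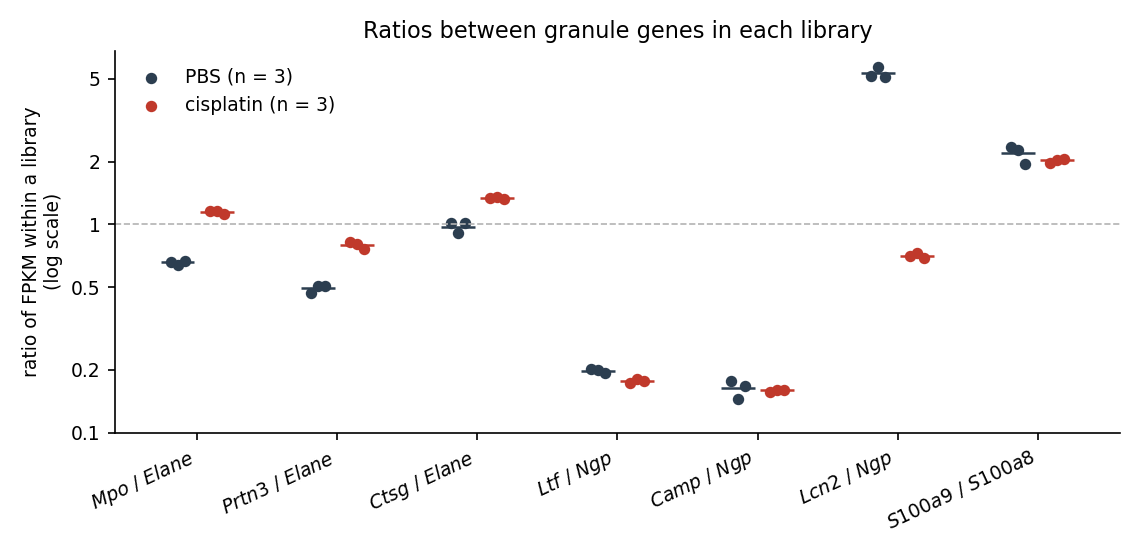
Ratio of the FPKM of 2 granule genes within each library (log scale), for 7 pairs. Points are libraries and short lines the means of 3, dark blue for PBS and red for cisplatin, and the dashed line marks a ratio of 1. The groups overlap for Camp to Ngp and for S100a9 to S100a8, and Lcn2 to Ngp falls from above 5 to about 0.7.

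The order of the levels, which FPKM allows to be compared between genes, differed between the groups. With PBS it ran S100a9, S100a8, Lcn2, Ngp, Ltf, Camp, Elane, Ctsg, Mpo and Prtn3, where Camp and Elane, and Elane and Ctsg, overlapped. With cisplatin it ran S100a9, S100a8, Ngp, Lcn2, Ctsg, Mpo, Ltf, Camp, Elane and Prtn3, where Mpo and Ltf, and Camp and Elane, overlapped. Together the 10 genes took 0.817% to 0.831% of the recovered reads with cisplatin and 0.567% to 0.576% with PBS. After scaling by the pan-leukocyte genes the summed level of the 10 was lower with cisplatin, at 7189 to 7387 against 7626 to 7917 FPKM (exact permutation test, p = 0.1). S100a8, S100a9 and Lcn2 make up most of that sum.

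Genes next to the members were compared by their position in the table. Prtn3 and Elane neighbour each other, and both rose. The gene on the far side of Elane, Cfd, which encodes the serine protease complement factor D, was close to 0 in both groups (0.131 and 0.093 FPKM, under the filter). Mcpt8, a protease gene of basophils next to Ctsg, rose from 32.7 ± 2.06 to 99.9 ± 7.48 FPKM (log2 fold change 1.58, adjusted p = 1.79e-06, but 0.80 and 0.60 under the scalings, short of the fold threshold), while Gzme on its other side was near 0. Lpo, the lactoperoxidase gene 2014 bases from Mpo, was at 0.139 FPKM with cisplatin and listed at 0 in each PBS library. The genes beside Camp and Ngp, Nme6, Cdc25a, Ptpn23 and Klhl18, had log2 differences of 0.67, 0.64, 0.30 and 0.27. None passed the fold threshold, and all were below the pan-leukocyte median of 0.83. Beside Lcn2, 1110008P14Rik stood at -0.56 and Ptges2 at -0.29. Ccrl2 beside Ltf was lower where Ltf rose (-0.49, limma adjusted p = 5.06e-05, short of the fold threshold), and Rtp3 on the other side was at 0. Ptbp1 beside Prtn3 stood at 0.32. Tspoap1 beside Mpo, S100a7a beside S100a8 and Pglyrp4 beside S100a9 were under the filter. Camp, Ngp and Ltf lie on chromosome 9 within reach of each other, 570129 and 596258 bases apart.

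Among other genes of the azurophil granule and of promyelocytes, 12 were listed and 10 tested. Of these 6 rose and none fell, and the median of the list was 1.15 on the log2 scale (0.41 and 0.22 under the pan-leukocyte and Y-linked scalings, with 2 called higher, 0 lower and 6 of 10 above 0 under either). Ms4a3, a membrane protein gene of granulocyte-monocyte progenitors, rose the furthest, from 3.07 ± 0.33 to 32.2 ± 2.19 FPKM (log2 fold change 3.03, adjusted p = 2.03e-07). Cst7, which encodes the cysteine protease inhibitor cystatin F, rose from 5.73 ± 0.92 to 27.5 ± 2.89 FPKM (log2 fold change 2.09, adjusted p = 6.50e-06). Lyz2, the lysozyme gene shared by neutrophils and macrophages, rose from 1161 ± 10.8 to 3459 ± 80.4 FPKM (log2 fold change 1.57, adjusted p = 1.14e-07). Ms4a3 and Cst7 kept the call under both scalings (2.33 and 2.16, 1.36 and 1.18), and Lyz2 lost it (0.77 and 0.58). The 2 untested genes were Bpi and Prss57, which were at or below 1.18 FPKM on average in each group.

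Other specific and gelatinase granule genes were split, as the members were. All 16 listed were tested, 7 rose and 2 fell, with a median of 0.92. With pan-leukocyte scaling 2 were called higher and 3 lower (median 0.18), and with Y-linked scaling 1 higher and 3 lower (median -0.020, of the other sign). Mmp25, a membrane-bound metalloproteinase gene, rose from 2.14 ± 0.30 to 11.3 ± 0.76 FPKM (log2 fold change 1.97, adjusted p = 1.98e-06), and Itgb2l, a β2-integrin-like gene, from 3.08 ± 0.23 to 13 ± 1.53 FPKM (1.77, adjusted p = 4.48e-06). Mmp25 kept the call under both scalings (1.32 and 1.16), and Itgb2l kept it under the first alone (1.09 and 0.93). The largest change of the list was the fall of Orm1, which encodes the acute-phase protein orosomucoid, from 12.9 ± 1.98 to 1.11 ± 0.64 FPKM (log2 fold change -2.76, adjusted p = 4.33e-05). The other gene that fell was Hp, which encodes haptoglobin, the haemoglobin-binding acute-phase protein, from 703 ± 24.3 to 216 ± 10.1 FPKM (log2 fold change -1.70, adjusted p = 2.47e-07).

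The S100 and stefin genes beside or related to the cytosolic members moved in both directions as deposited. Of 10 tested, S100a4 rose (16.3 ± 2.73 against 6.07 ± 0.81 FPKM, log2 fold change 1.29, adjusted p = 1.27e-04) and Stfa2 and Stfa3, which encode cysteine protease inhibitors abundant in neutrophils, fell (log2 fold changes -1.07 and -2.02, adjusted p = 2.45e-05 and 7.66e-07). The median was -0.13. With pan-leukocyte scaling it was -0.92, with 0 called higher, 3 lower and 2 of 10 above 0, and with Y-linked scaling -1.11, with 0 higher, 6 lower and 1 above 0. S100a4 lost its call under both (0.56 and 0.39). The stefin genes are near-identical copies of each other, so their reads may be shared between them.

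Transcription factor genes of granulopoiesis were all tested. Of 11, 2 rose and 2 fell, and their median of 0.48 turned to -0.29 and -0.47 under the pan-leukocyte and Y-linked scalings. Myb, which maintains immature progenitors, rose from 5.82 ± 0.62 to 20.2 ± 0.51 FPKM (log2 fold change 1.64, adjusted p = 1.96e-06), and Gfi1, a repressor needed for neutrophil formation, was the other (1.13, adjusted p = 2.83e-05). Neither kept the call under the scalings (0.91 and 0.73 for Myb, 0.50 and 0.35 for Gfi1), where 0 of 11 were called higher. Klf4 and Egr1, both linked to monocyte and macrophage differentiation, fell by 1.39 and 1.52 on the log2 scale (adjusted p = 2.81e-07 and 1.42e-06). Cebpe, which encodes C/EBPε, was at 15.8 ± 1.93 against 10.3 ± 0.95 FPKM, short of the fold threshold (0.57, adjusted p = 0.00205), and its sign turned under the pan-leukocyte scaling (-0.18, adjusted p = 0.102).

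Genes that activate or inhibit the granule proteases moved in both directions. Ctsc encodes dipeptidyl peptidase 1, which activates elastase, proteinase 3 and cathepsin G by trimming their precursors. It rose with them, from 24.3 ± 1.14 to 58.9 ± 2.73 FPKM (log2 fold change 1.24, adjusted p = 1.42e-06), a call lost under both scalings (0.46 and 0.27). Serpinb6b, a serpin gene, fell from 49.3 ± 3.10 to 6.27 ± 0.049 FPKM (log2 fold change -2.79, adjusted p = 7.82e-08). Of 14 genes listed 8 were tested, 2 rose and 2 fell, with a median of 0.45 (-0.34 and -0.53 under the pan-leukocyte and Y-linked scalings). Those untested included Serpina1a, which was at 0 in every library. Among receptors of the released proteins, 7 of 9 were tested, 1 rose and 1 fell, with a median of 0.695 that turned to -0.10 and -0.30 under the scalings. Itgam, which encodes the CD11b chain of a β2 integrin, rose (log2 fold change 1.42, adjusted p = 2.54e-07, with values of 0.63 and 0.44 under the scalings that do not reach the fold threshold), and Lrp1, a scavenger receptor that takes up lactoferrin and protease complexes, fell (log2 fold change -1.002, adjusted p = 1.55e-05). Itgb2, the gene of the chain that pairs with CD11b and itself 1 of the 18 pan-leukocyte genes, had 264 ± 2.93 against 157 ± 4.01 FPKM (0.75, short of the fold threshold, with values of -0.049 and -0.24 under the pan-leukocyte and Y-linked scalings).

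**Figure D5:**
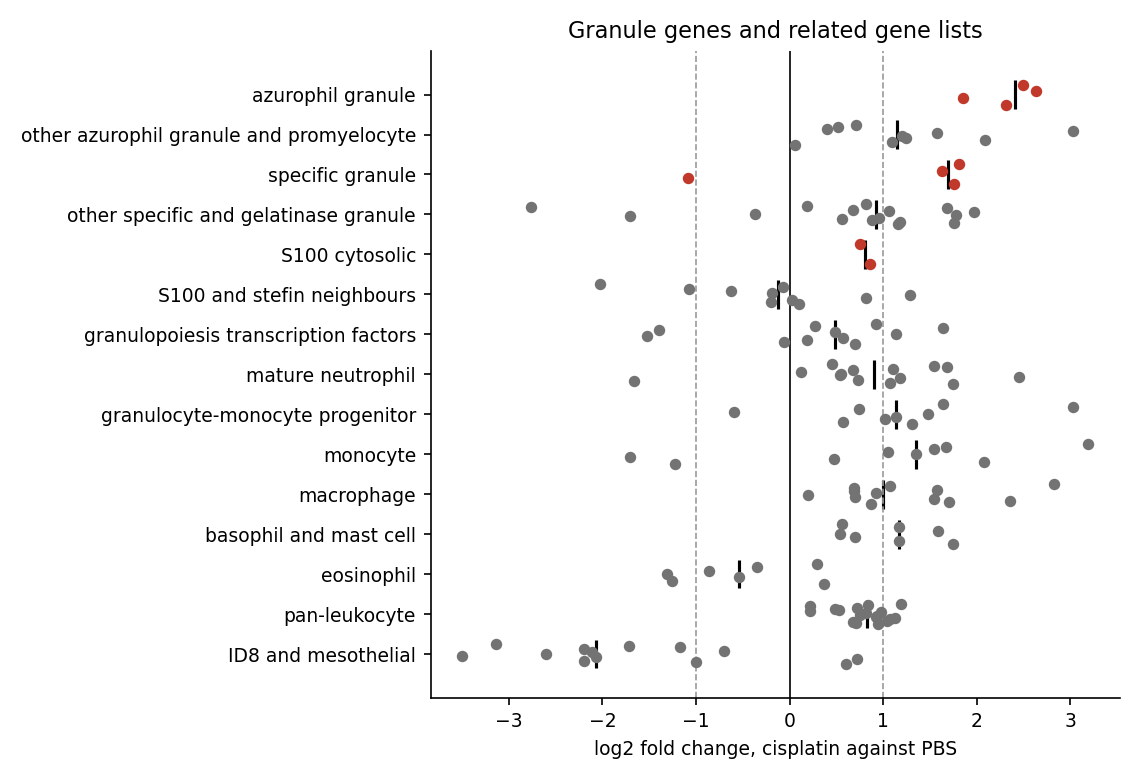
Log2 fold change, cisplatin against PBS, of each tested gene in 15 lists with the table as deposited. Red points are the granule genes, grey points other lists, black bars list medians, and dashed lines a fold of 2. The azurophil genes have the highest median of the lists shown and the ID8 and mesothelial genes the lowest. Under pan-leukocyte scaling the medians of the transcription factor, S100 and cytosolic S100 lists stand at -0.29, -0.92 and 0.0050.

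The markers of the cells that could carry these transcripts were measured in the same libraries. Of 14 mature neutrophil markers, all tested, 7 rose and 1, the chemokine receptor gene Cxcr1, fell, with a median of 0.90. Under either scaling 1 was called higher, 1 lower and 7 of 14 were above 0 (medians 0.13 and -0.063). Their summed level was 1128 to 1181 FPKM with cisplatin and 483 to 505 FPKM with PBS, and none was at 0 in all libraries. The most abundant by the mean over all 6 libraries were Fpr1, a formyl peptide receptor gene (354 ± 19.9 against 155 ± 2.10 FPKM), and Clec4d, a lectin receptor gene also known in macrophages (332 ± 8.15 against 98.4 ± 0.081 FPKM), although Mmp9 was above Clec4d with PBS (105 FPKM). Neither kept the call under the scalings (0.38 and 0.19 for Fpr1, 0.94 and 0.75 for Clec4d). Ly6g, the gene of the surface protein that defines mouse neutrophils, was low in both groups, at 3.15 ± 0.36 and 2.81 ± 0.46 FPKM (log2 fold change 0.13, adjusted p = 0.349), and its sign turned under the pan-leukocyte (-0.47, adjusted p = 0.00613) and Y-linked (-0.62, adjusted p = 0.000976) scalings. Of 10 markers of granulocyte-monocyte progenitors 9 were tested and 6 rose, with a summed level of 94.0 to 98.1 against 28.2 to 30.6 FPKM. Ms4a3 and Cebpe had the highest means over all 6 libraries, with Myb above Cebpe with cisplatin and above Ms4a3 with PBS. Their median was 1.14. Under either scaling 1 was called higher and 1, Meis1, lower (medians 0.61 and 0.50), and Meis1 was at -0.59 as deposited, short of the fold threshold (adjusted p = 0.00178). Hp, Lyz2, Ms4a3 and some others stand in more than 1 list. Of 9 monocyte markers 6 rose and 2 fell, with a median of 1.35, and under either scaling 2 were called higher and 2 lower, with medians of 0.56 and 0.37. The summed level of these markers was nevertheless lower with cisplatin, at 529 to 541 against 805 to 851 FPKM, since Hp made up most of it with PBS, and the next most abundant over all libraries was Plac8 (120 against 57.5 FPKM, a call lost under the scalings at 0.26 and 0.064). Of 12 macrophage markers 6 rose and none fell, with a median of 1.002 and a summed level of 4152 to 4316 against 1614 to 1624 FPKM. Under the scalings 3 and 2 of them were called higher, with medians of 0.44 and 0.26. Mrc1 (2.82 as deposited, 2.275 and 2.14 scaled) and C1qb (2.355, 1.62 and 1.44) kept the call under both, and C1qa under the first alone. Lyz2 and Cd68 had the highest means over all 6 libraries, although Cd14 and Adgre1 were above Cd68 with cisplatin (202 and 189.7 FPKM). Cd68 was at 179 ± 2.52 against 156 ± 8.92 FPKM, a log2 difference of 0.20 as deposited that turned to -0.60 and -0.79 under the scalings. The labelled cell type was thus matched by its markers in both groups, beside those of granulocytes and their progenitors. The part of these cells in the granule gene results was not tested.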

How the data were processed

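Poly-A selected RNA of 6 BMDM libraries was sequenced. The deposited table holds FPKM, which the authors made from read counts divided by gene length and a library total. The submitters' processing notes name fastp, HISAT2 2.0.5, featureCounts 1.5.0-p3 and mm10, and the methods name LifeScope. Multiplied by gene length, 100% of values below 200 reads came out whole (within 0.02 of a read), which gave the reads per library. The total behind the FPKM lay above these reads with cisplatin (103.7% to 104.1% of them) and below them with PBS (97.4% to 98.7%), so it was not the plain library size. Replicates of a group differed by more than counting noise. Genes with at least 1 FPKM in at least 3 libraries were tested on log2(FPKM + 1) with limma 3.58.1 (R 4.3.3, group as the only term, eBayes with a trend, tested on simulated data), and adjusted p-values are limma's with Benjamini-Hochberg adjustment over all 13441 tested genes. Fold changes on this scale understate those of low genes. Single values per library were compared by exact permutation tests (scipy 1.17.1). The members and gene lists were chosen with earlier results of these data known. Named from each list were the 3 genes with the largest change, or for cell markers the 2 most abundant. Gfi1, Hp and Cebpe in their lists, Ly6g, Cxcr1, Meis1, Ear1 and the untested genes were chosen after their values were seen. So were Vcan, Ccr2, Ace, Mrc1, C1qa and C1qb, and genes named as exceeding another in 1 group. Alternatives covered the pseudocount, filter, scaling, test, replicate block, thresholds and each library left out. Promoter sequences are from RefSeq (GRCm38.p6). Of the genes most like the specific granule members, 1 is not reported here.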

Additional observations from a re-analysis of the deposited data

How the results depend on the processing

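Depth did not limit the members, each of which had at least 316 reads in every library. Leaving out each library in turn kept 7 granule genes higher and 1 lower in all 6 fits. The ranges of these fits were 1.72 to 1.83 for the median log2 fold change of the members, 2.20 to 2.28 for the difference of the log2 azurophil to specific granule ratios (2.23 over all libraries), 0.691 to 0.714 for that of the summed level of the 10 genes (0.703 on log2 TPM), and 622 to 671 genes higher and 1513 to 1531 lower over all tested genes. The groups share replicate numbers, but same-numbered libraries did not deviate together (correlations of -0.104, -0.0857 and -0.0235 across genes). With that number entered as a replicate block, 7 granule genes were higher and 1 lower, as without it, the median was 1.79, and over all genes 625 were higher and 1515 lower.

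Over all tested genes, 628 higher and 1514 lower became 973 higher with a pseudocount of 0.1, 1227 higher with limma voom, 119 and 3911 with pan-leukocyte scaling, 85 and 5181 with Y-linked scaling, 240 and 982 with limma treat, and 4424 and 4721 with the adjusted p alone. Members called higher numbered 3 with Y-linked scaling. Members called lower numbered 0 with quantile normalisation and with limma treat. The median of the members moved to 0.994 with pan-leukocyte scaling, 0.80 with Y-linked scaling and 1.89 with voom. The azurophil to specific granule difference moved to 1.30 on mean log2 levels and to 0.549 without the member of each compartment with the highest mean over all 6 libraries (Ctsg and Lcn2). The summed level of the members reversed with pan-leukocyte scaling (-0.092), as did S100a9 (-0.049), and with Y-linked scaling S100a9 (-0.245) and S100a8 (-0.138). For none of these shifts was the cause tested.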

Other observations

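Basophil and eosinophil genes were measured beside the granule genes, since both are granulocytes whose proteases or granule proteins are related to those of neutrophils. Of 8 basophil and mast cell markers 7 were tested, 4 rose and none fell, and the median of the list was 1.16 on the log2 scale (0.46 and 0.28 under pan-leukocyte and Y-linked scaling) and a summed level of 272 to 292 FPKM with cisplatin against 129.5 to 139 FPKM with PBS. The highest means over all 6 libraries were those of Prss34 (110.5 ± 4.17 against 74.5 ± 3.13 FPKM, a log2 difference of 0.56 that turned to -0.23 and -0.42 under the 2 scalings) and Mcpt8, and under either scaling 0 of the 7 were called. Of 8 eosinophil markers 7 were tested, none rose and 2 fell, Epx and Ear1, with a median of -0.54. Under pan-leukocyte scaling 4 were called lower (median -1.22), under Y-linked scaling 5 (median -1.38), and 0 were above 0 under either. Their summed level was 47.0 to 52.6 FPKM with cisplatin and 89.2 to 94.4 FPKM with PBS. The highest means over all 6 libraries were those of Prg2, the major basic protein gene (34.6 ± 2.69 against 63.4 ± 3.56 FPKM, log2 fold change -0.86, adjusted p = 3.48e-05), and Epx, the eosinophil peroxidase gene (3.71 ± 0.52 against 10.7 ± 0.78 FPKM, log2 fold change -1.31, adjusted p = 2.20e-05), although Ear6 was above Epx with cisplatin (4.45 FPKM). Epx, the eosinophil relative of Mpo, thus fell where Mpo rose.

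The genes whose centred 6-library profile lay closest to the mean profile of the azurophil members were Cmklr1 (distance 0.194 on log2(FPKM + 1)), Serpinb2 (0.201), Tfec (0.212), G0s2 (0.221) and Clec4n (0.229), with log2 fold changes of 2.47, 2.23, 2.42, 2.45 and 2.39. Among those closest to the mean profile of the specific granule members were Tgfb1 (0.059), Ddx21 (0.0685), Ftsj3 (0.0835) and Slc43a2 (0.0884). That mean averages 3 rises and the fall of Lcn2, and no single member followed it. The distances are a description over the same 6 libraries, with no test.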
